A study of Mus musculus with 6 samples.

Results

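The potassium channel genes of the mouse, whose symbols begin with Kcn, were followed in RNA of the ventromedial hypothalamus (VMH), a nucleus that helps to set energy balance. A probe counted as a member when its annotated symbol begins with Kcn and its detection p was under 0.05 on at least 3 of the 6 arrays. Of 173 such probes for 88 genes on the array, 75 probes for 56 genes passed, among 20006 probes and 10825 named genes that passed in all. Most members encode channel subunits that form the pore or attach to it. Kcnq1ot1, a noncoding RNA made antisense to Kcnq1, and Kcnrg, a regulator that shares a domain with channel subunits, entered through their symbols alone. The rule used detection and not the genotype difference.

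The study set 3 arrays of mice with a VMH-specific FoxO1 knockout (KO) against 3 arrays of wild-type mice (WT), with Illumina Mouse-6 V2 BeadChips. FoxO1 binds DNA and is shut out of the nucleus when insulin signals. Each array carried RNA pooled from 3 animals, both genotypes are labelled as of mixed strain background, and no treatment was given to either. Neither the labels nor the design text used here name the age or sex of the animals or the Cre driver of the deletion. Because the RNA is that of a whole tissue piece, fewer cells of a type and less RNA per cell cannot be told apart.

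Potassium channels let potassium leave the cell and so pull the membrane towards rest. Voltage-gated (Kv) subunits end action potentials and set firing rates, inward rectifiers and K2P leak channels hold the resting potential, and calcium- or sodium-activated channels shape the pause after a spike. In glucose-sensing neurons of the VMH, channels closed by ATP, built from Kcnj11 and the sulphonylurea receptor Abcc8, couple fuel supply to firing.

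The arrays each detected between 18771 and 20445 probes of 45281. KO 1 stood apart: its mean correlation with the other arrays was 0.954, where theirs were 0.977 to 0.981, and values without KO 1 are given beside most differences. Of 8 VMH markers, all passed the detection rule, the defining Nr5a1 among them (5.76 to 6.50), and 0 of the 8 passed limma's genotype test. At an unadjusted p under 0.05 there were 2, Bdnf higher and Cckbr lower in KO, where 6.36% of all tested genes were. Markers of the neighbouring arcuate nucleus (Kiss1, Npy, Pomc and Tbx3, 4 of 5 listed) passed the detection rule too. None of these 4 passed limma's genotype test, while 3 had an unadjusted p under 0.05 with arrays that separated the genotypes (Kiss1 higher, Npy and Tbx3 lower in KO). Over all tested genes, the KO arrays were all higher for 8.6% and all lower for 6.79%. The brighter Foxo1 probe read 6.47, 7.29 and 7.25 on KO 1, KO 2 and KO 3 against 7.62, 7.49 and 7.84 on WT 1, WT 2 and WT 3, a difference of -0.65 (limma adjusted p = 0.582). The dimmer Foxo1 probe differed by 0.34 (limma adjusted p = 0.677). Where these probes lie against the deletion is not stated, so neither checks the labels. All values are log2 of normalised intensity, arrays are listed in the order 1, 2, 3 within a genotype, and differences are KO minus WT. Levels of different probes are not set against each other, since a probe's brightness depends on its own sequence.

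No Kcn probe differed between the genotypes past the threshold. With limma's moderated test and Benjamini-Hochberg adjustment over all tested probes, 0 of 75 Kcn probes had an adjusted p under 0.05, where 1 of 20006 probes (0.005%) did in the whole table. At an unadjusted p under 0.05 there were 3 Kcn probes, 2 of Kcnt1 and 1 of Kcnma1, all lower in KO. That is 4% of the members, against 7.58% of all tested probes (3.8% lower and 3.77% higher in KO). Counted over genes it is 1 of 56, or 1.79%, against 6.36% of all tested genes (2.82% lower and 3.54% higher). Over probes, the KO arrays were all higher for 5 of 75, or 6.67%, against 8.84%, and all lower for 3, or 4%, against 6.24%. Taking for each gene its brightest tested probe, 26 Kcn genes read lower and 30 higher in KO, and 46.4% negative compares with 47.4% over all tested genes. The median difference of the 56 genes was 0.032 log2, beside 0.019 over all 10825 tested genes. Differences ranged from -0.88 for Kcnt1 to 0.41 for Kcnmb4, and those of 2 genes, Kcnt1 and Kcnc1, exceeded 1.5-fold.

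The KO arrays were all higher than the WT arrays for 5 Kcn genes (Kcnmb4, Kcnj4, Kcnj12, Kcnk12 and Kcnk13), or 8.93%, where the share over all tested genes was 8.6%. They were all lower for 2 Kcn genes (Kcnt1 and Kcna2), or 3.57%, where it was 6.79%. These counts depended on single arrays, as did the shares over all tested genes. Without KO 3 the first count was 13 and without WT 1 it was 10. The second was 10 without KO 2, 10 without WT 1, 5 without WT 3 and 4 without WT 2. Fewer arrays separate more often by construction, and over all tested genes the share below became 17.5% without KO 2 and 12.4% without WT 1. It was 9.1% without WT 3 and 12.8% without WT 2. The shares above over all genes were 16.8% without KO 3 and 13% without WT 1.

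**Figure D1:**
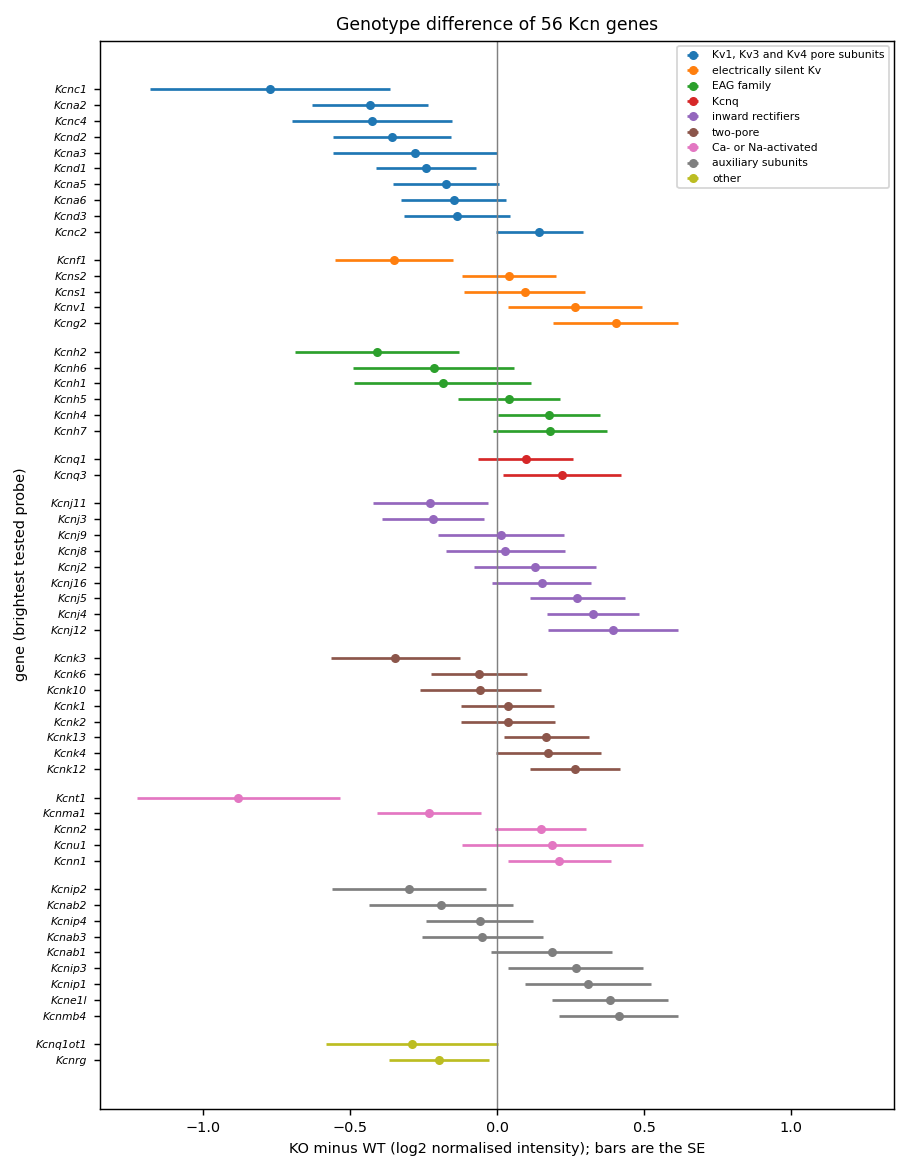
Difference between KO and WT on the log2 scale for the brightest tested probe of each of the 56 Kcn genes, grouped by channel class, with the SE of limma's model as bars. Kcnt1 (-0.88) and Kcnc1 (-0.77) lie farthest to the left, 9 of the 10 Kv pore subunits are left of 0, and no gene passed the adjusted threshold.

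Promoter letters were searched because FoxO1 is a DNA-binding factor and its loss is the variable of the study. RefSeq promoters of GRCm38.p6, 300 bases around an annotated start, matched 43 of the 56 genes with 63 starts. The FoxO core GTAAACA, or TGTTTAC when read on the other strand, was found in 0 of the 63, and in 3.65% of all 32851 promoters. The related insulin response letters CAAAACA, or TGTTTTG when read on the other strand, which do not contain the core, were found in 4 of the 63, or 6.35%, and in 6.28% of all promoters. Those 4 belonged to Kcnj16, Kcnj8 and Kcnk2. A match is a description of letters and not a binding site, and the absence of a match says only that these letters are not in this window. Shown are Kcna2 and Kcnmb4, whose arrays separated the genotypes in opposite directions and which hold neither motif, then Kcnj8 and one start of Kcnk2, which hold a match in capitals.
Kcna2, chr3:107101317-107101616, plus strand: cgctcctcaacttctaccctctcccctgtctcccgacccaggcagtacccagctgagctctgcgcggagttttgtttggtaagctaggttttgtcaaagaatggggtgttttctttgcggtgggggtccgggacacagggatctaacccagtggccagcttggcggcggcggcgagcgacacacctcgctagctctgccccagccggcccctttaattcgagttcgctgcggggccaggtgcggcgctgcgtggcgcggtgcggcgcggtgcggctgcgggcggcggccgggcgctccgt
Kcnmb4, chr10:116473474-116473773, minus strand: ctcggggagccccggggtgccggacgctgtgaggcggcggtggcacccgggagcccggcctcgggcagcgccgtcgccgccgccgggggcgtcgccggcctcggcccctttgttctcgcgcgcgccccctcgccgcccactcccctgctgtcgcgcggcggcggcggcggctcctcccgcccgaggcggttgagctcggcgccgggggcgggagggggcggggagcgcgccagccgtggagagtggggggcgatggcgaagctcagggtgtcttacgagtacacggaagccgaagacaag
Kcnj8, chr6:142571565-142571864, minus strand: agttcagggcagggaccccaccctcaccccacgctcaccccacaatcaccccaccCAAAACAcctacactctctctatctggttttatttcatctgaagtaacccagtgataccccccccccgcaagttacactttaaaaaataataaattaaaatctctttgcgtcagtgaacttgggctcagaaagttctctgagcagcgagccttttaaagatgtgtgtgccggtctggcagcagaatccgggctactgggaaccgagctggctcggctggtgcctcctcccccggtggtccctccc
Kcnk2, chr1:189402224-189402523, minus strand: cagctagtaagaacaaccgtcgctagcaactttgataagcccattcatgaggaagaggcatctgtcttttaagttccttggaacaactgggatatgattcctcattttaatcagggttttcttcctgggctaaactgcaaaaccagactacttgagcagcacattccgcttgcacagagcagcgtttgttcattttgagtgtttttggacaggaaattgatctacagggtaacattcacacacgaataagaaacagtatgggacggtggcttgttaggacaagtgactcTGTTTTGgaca
The match of Kcnj8 begins at position -195 from the annotated start, and that of Kcnk2 at position 39. Kcnj8 differed by 0.028 (SE 0.20) and Kcnk2 by 0.038 (SE 0.16) on its brightest probe, and neither gene's arrays separated the genotypes.

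Pore subunits of the classical Kv families read mostly lower in KO. Of 10 tested genes of the Kcna (Shaker), Kcnc (Shaw) and Kcnd (Shal) families, 9 read lower in KO, with a median of -0.26, and 0 of the 10 passed limma's test, with 0 at an unadjusted p under 0.05. Kcna2, a subunit of axons that limits excitability near the spike initiation zone, read 7.91, 8.60 and 8.31 in KO and 8.77, 8.63 and 8.70 in WT. Every KO array was below every WT array, by 0.43 on average (SE 0.20; limma adjusted p = 0.582), with KO 2 just under WT 2. The promoter of this gene is the first printed above. Without KO 1 the difference was -0.25.

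Kcnc1, which lets fast-spiking neurons fire at high rates, measured 8.19, 9.84 and 9.81 in KO and 9.81, 10.18 and 10.17 in WT. KO 1 was far below the rest, and KO 2 and KO 3 reached the lowest WT array. The difference of -0.77 (SE 0.41; limma adjusted p = 0.582) was -0.23 without KO 1. Its dimmer probe behaved likewise, at 5.41, 7.34 and 6.80 against 6.90, 7.01 and 6.77, and turned from -0.38 to 0.17 when KO 1 was left out. Kcnc4, a close relative, differed by -0.43, and by -0.097 without KO 1. Kcnc2 was the member on the positive side, at 0.14 (SE 0.15).

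Among the A-type channels, which delay the return to firing, Kcnd2 differed by -0.36 (SE 0.20), Kcnd1 by -0.24 and Kcnd3 by -0.14, and by -0.16, -0.16 and -0.27 without KO 1. A dimmer Kcnd2 probe differed by -0.064 (SE 0.22), and by 0.18 without KO 1. Kcna3, Kcna5 and Kcna6 differed by -0.28, -0.17 and -0.15, and by 0.058, -0.18 and -0.0093 without KO 1. Of the 17 tested probes of these 10 genes, 15 read lower in KO, and on 12 of the 17 KO 1 was the lowest of the 6 arrays. On 8 of those 12 both other KO arrays lay at or above the lowest WT array. Over all 10825 tested genes, KO 1 was the lowest of the 6 arrays for 33.3% and the highest for 38%, and 47.4% read lower in KO. On the brightest probes, leaving out KO 1 gave a class median of -0.16 with 8 of 10 genes negative, and leaving out KO 2 gave -0.41. Without KO 1 the dimmer probes gave 0.013 and 0.0087 for Kcna6, 0.17 for Kcnc1 and -0.14 and 0.0055 for Kcnc2. Those of Kcnc4 and Kcnd2 gave 0.046 and 0.18. Without background correction the median was -0.11.

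Neuronal transcripts on KO 1 went both ways. Of 7 pan-neuronal markers, 5 were tested (Rbfox3, Eno2, Syt1, Stmn2 and Tubb3), and Snap25 and Nefl had no probe past the detection rule. Their mean level was 11.14 on KO 1 and between 11.58 and 11.73 on the other arrays. Summed on the linear scale and taken to log2, the list ranged from 14.61 to 15.25 in KO and from 15.25 to 15.33 in WT. KO 1 was the lowest of the 6 arrays for 3 of them, at 11.12 for Rbfox3, 12.93 for Eno2 and 12.55 for Syt1. It was the highest for the other two, at 13.11 for Stmn2 and 5.98 for Tubb3. Astrocyte markers (7 of 7 tested) averaged 10.79 on KO 1 and 10.33 to 10.56 elsewhere. Their log2 sum was instead lowest on KO 1, at 14.87, and 14.96 to 15.04 on the other arrays. Transcripts of the exocrine pancreas, 13 of 15 tested, averaged 12.06, 10.70 and 9.29 in KO and 11.63, 8.68 and 10.41 in WT, with log2 sums of 14.01 to 16.37 in KO and 13.52 to 16.01 in WT. No tested marker of these lists was at 0, and their part in the Kv values was not tested.

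**Figure D2:**
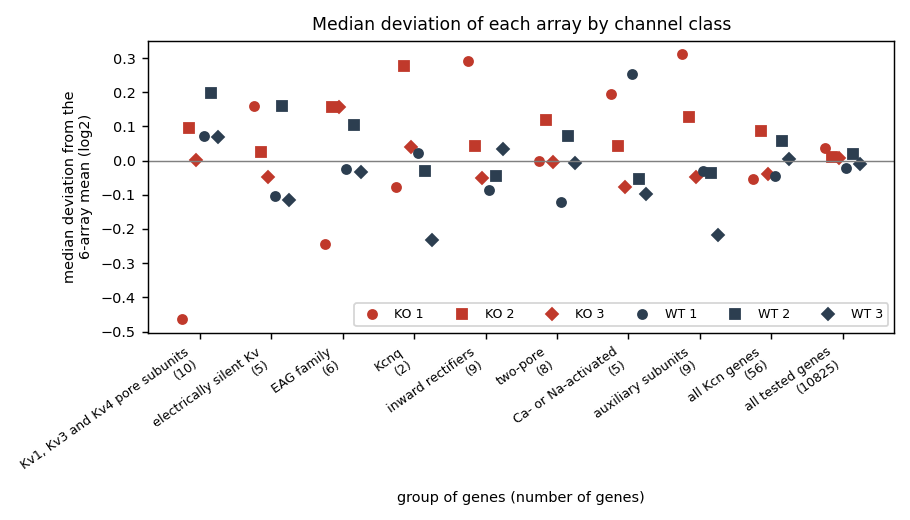
Median deviation of each array from the 6-array mean, in log2, for the genes of each channel class, with KO arrays in red and WT arrays in dark blue. In the Kv pore class KO 1 lies at -0.46 while the other 5 arrays lie between 0.0022 and 0.20, and in the auxiliary class KO 1 is the highest array at 0.31.

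Kcnt1, a sodium-activated channel that contributes to the pause after bursts of spikes, gave the largest difference among the 56 genes with background correction and all arrays, and Kcnc1 exceeded it without the correction (-0.64 against -0.59). Its brighter probe (ILMN_2479273) read 6.97, 8.30 and 8.18 in KO and 8.83, 8.35 and 8.91 in WT, and the dimmer probe (ILMN_2923717) 5.64, 6.50 and 6.38 against 7.12, 6.61 and 6.84. On both probes each KO array was below each WT array, with KO 1 lowest and KO 2 close under WT 2. The means were 7.82 ± 0.74 and 8.70 ± 0.30 (SD, n = 3 each) on the brighter probe, a difference of -0.88 (SE 0.34) or 1.84-fold lower in KO (limma adjusted p = 0.582). The dimmer probe differed by -0.69 (SE 0.25; limma adjusted p = 0.582). The deposited signals of the brighter probe, before any correction here, were 252.4, 442.2 and 417.1 in KO and 580.6, 453.3 and 609.4 in WT. Leaving out KO 1 lowered the differences to -0.46 and -0.42, and without background correction they were -0.59 and -0.28.

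The other genes grouped with the calcium- or sodium-activated channels read on both sides of 0. Kcnma1, the pore of the large-conductance calcium-activated channel, was read by 3 probes that each gave a negative difference. Its brightest probe measured 8.62, 9.09 and 9.01 in KO and 9.27, 9.02 and 9.11 in WT, which overlap, with a difference of -0.23 (SE 0.18; limma adjusted p = 0.615). The dimmest (ILMN_1244166) measured 6.29, 6.66 and 7.31 against 8.25, 7.14 and 7.52, a difference of -0.88 (SE 0.33; limma adjusted p = 0.582) with KO 3 above WT 2. Without KO 1 these were -0.087 and -0.65. Kcnn1 and Kcnn2, small-conductance channels of the afterhyperpolarisation, differed by 0.21 and 0.15, and by 0.16 and 0.088 without KO 1. Kcnu1, known from sperm and placed in this class only as a relative of Kcnma1, differed by 0.19, and by -0.16 without KO 1. The class median of 0.15 over 5 genes likewise became -0.087 without KO 1.

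**Figure D3:**
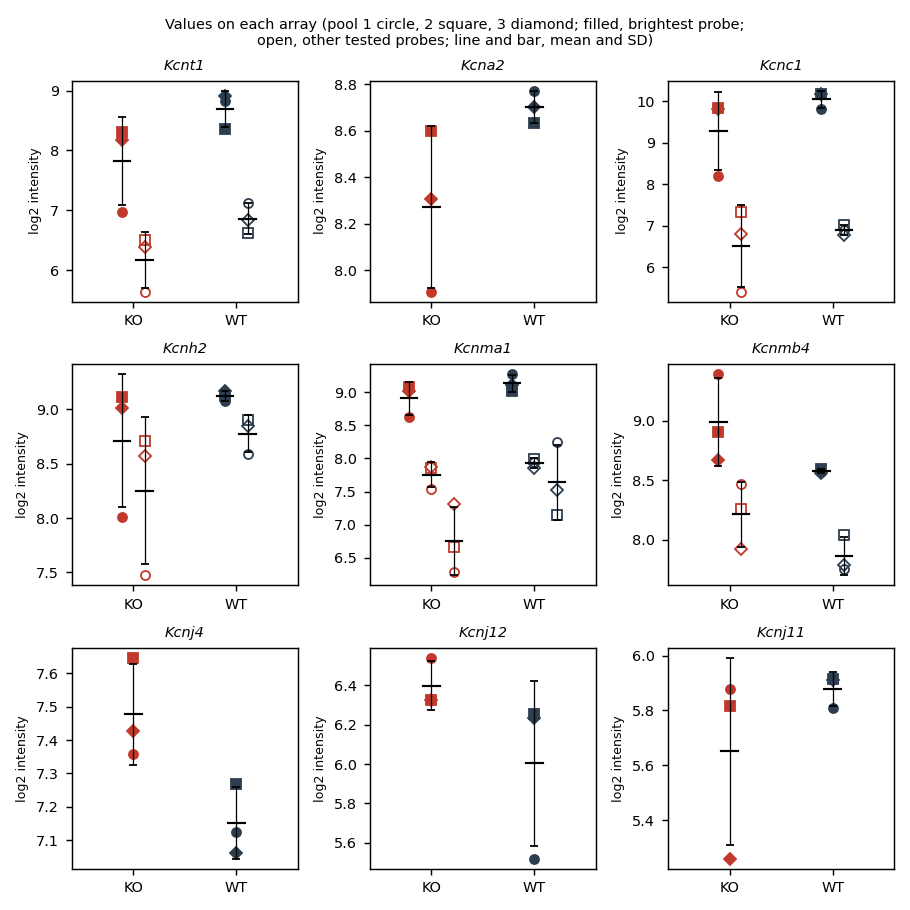
Log2 intensity on each array for 9 Kcn genes, with KO in red and WT in dark blue, one symbol per pool number, filled symbols for the brightest probe, open symbols for other tested probes, and the mean with its SD in black. KO 1 is the lowest point of Kcnt1 (6.97), Kcna2 (7.91), Kcnc1 (8.19) and Kcnh2 (8.01), and the highest of Kcnmb4 (9.39).

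In the EAG family, voltage-gated channels with unusual gating, 3 of 6 genes read lower and 3 higher in KO, with a median of -0.072 that became 0.093 without KO 1. Kcnh2, the neuronal and cardiac ERG channel, measured 8.01, 9.11 and 9.01 in KO and 9.07, 9.12 and 9.16 in WT. Its difference of -0.41 (SE 0.28; limma adjusted p = 0.592) was -0.057 without KO 1, the lowest array. The dimmer Kcnh2 probe gave -0.53 and, without KO 1, -0.14. Kcnh4 differed by 0.18 (SE 0.17; limma adjusted p = 0.666), at 5.91, 6.07 and 5.58 against 5.75, 5.57 and 5.70, so that KO 3 lay among the WT arrays.

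Kcnq genes, which form the M-current that acetylcholine and peptides suppress, were tested for 2 members. Kcnq3 measured 5.87, 6.39 and 5.82 in KO and 5.84, 5.98 and 5.60 in WT, a difference of 0.22 (SE 0.20; limma adjusted p = 0.646) with KO 2 highest. Kcnq1, best known from heart and epithelia, differed by 0.098 (SE 0.16; limma adjusted p = 0.798), at 5.21, 5.40 and 5.50 against 5.44, 5.20 and 5.17. Kcnq5 had no probe past the detection rule. Its probe ILMN_2558387 was detected on KO 2 and KO 3 alone. It read 5.10, 5.36 and 5.73 in KO and 4.59, 4.56 and 4.61 in WT, with no WT array above background.

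Electrically silent Kv subunits do not conduct alone and modify Kcnb channels. Of 5 tested genes 4 read higher and 1 lower in KO. Kcng2 measured 6.14, 6.14 and 5.45 in KO and 5.62, 5.51 and 5.39 in WT, with KO 3 among the WT values, and differed by 0.40 (SE 0.21; limma adjusted p = 0.582). Kcnf1 measured 8.61, 9.28 and 8.95 against 9.32, 9.43 and 9.13, a difference of -0.35 (SE 0.20; limma adjusted p = 0.582) in which KO 2 passed WT 3. Without KO 1 these differences were 0.29 and -0.18, and without background correction 0.13 and -0.28. Kcns1, Kcns2 and Kcnv1 differed by 0.094, 0.040 and 0.26, and by 0.039, 0.11 and 0.067 without KO 1.

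Inward rectifiers, 9 genes, read higher in KO for 7 members and lower for 2, with a median of 0.13, and 0.022 without KO 1. The pair of strong rectifiers Kcnj4 and Kcnj12, which clamp the membrane near the potassium equilibrium, separated the genotypes. Kcnj4 measured 7.36, 7.65 and 7.43 in KO and 7.12, 7.27 and 7.06 in WT, a difference of 0.33 (SE 0.16; limma adjusted p = 0.582) that was 0.38 without KO 1 and 0.18 without background correction. Kcnj12 measured 6.54, 6.33 and 6.33 against 5.52, 6.26 and 6.24, a difference of 0.39 (SE 0.22; limma adjusted p = 0.582). For Kcnj12 the low array was WT 1, and WT 2 and WT 3 lay just under KO 2 and KO 3. Its difference was 0.15 without WT 1, 0.32 without KO 1 and 0.14 without background correction. Kcnj2, of the same group, differed by 0.13 (SE 0.21), and by -0.044 without KO 1.

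The pores of ATP-sensitive channels gave small differences. Kcnj11 measured 5.88, 5.81 and 5.26 in KO and 5.81, 5.92 and 5.91 in WT, near background, and KO 3 was undetected. Its difference was -0.23 (SE 0.19; limma adjusted p = 0.633), with a 95% interval from -0.67 to 0.22, and -0.34 without KO 1. Kcnj8, known from pericytes and smooth muscle, measured 5.87, 5.46 and 5.45 against 5.53, 5.31 and 5.86, a difference of 0.028 (95% interval -0.43 to 0.49; limma adjusted p = 0.958) that was -0.11 without KO 1. Abcc8, the partner of Kcnj11 and named here outside the rule for named genes, had KO 1 at 5.54 and its other arrays between 6.59 and 7.22, a difference of -0.34 (SE 0.37) that was 0.12 without KO 1.

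G-protein-gated rectifiers, which inhibitory transmitters open, were read by Kcnj3, Kcnj5 and Kcnj9. Kcnj3 measured 5.74, 5.95 and 5.69 in KO and 5.82, 6.26 and 5.96 in WT, a difference of -0.22 (SE 0.17; limma adjusted p = 0.620). Kcnj9 measured 5.40, 5.50 and 5.69 against 5.08, 5.67 and 5.80, a difference of 0.014 (SE 0.21; limma adjusted p = 0.981), and Kcnj5 differed by 0.27 (SE 0.16). Without KO 1 these were -0.19, 0.080 and 0.19. The genotypes overlapped for all of these genes. Kcnj16, a glial and epithelial subunit, differed by 0.15 (SE 0.17), and by 0.022 without KO 1.

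K2P channels carry the background leak of neurons and glia, and 5 of 8 tested genes read higher and 3 lower in KO, with a median of 0.037. Kcnk12 measured 5.96, 5.82 and 5.98 in KO and 5.53, 5.80 and 5.63 in WT, a difference of 0.27 (SE 0.15; limma adjusted p = 0.582) with the lowest KO array just above the highest WT array. Kcnk12 lay near background, and its difference was 0.081 without background correction and 0.24 without KO 1. Its relative Kcnk13, which sets the resting potential of microglia, differed by 0.17 (SE 0.14) and also separated the genotypes, at 8.85, 8.86 and 8.68 against 8.66, 8.64 and 8.59. Microglia markers (7 of 7 tested) averaged 8.12, 7.90 and 7.86 in KO and 7.56, 7.85 and 7.45 in WT, with log2 sums of 10.85 to 11.22 and 10.47 to 10.89, and their part in the Kcnk13 value was not tested. The acid-sensitive Kcnk3 measured 5.85, 6.68 and 6.32 against 6.70, 6.67 and 6.52, a difference of -0.35 (SE 0.22; limma adjusted p = 0.584), and of -0.13 without KO 1. Kcnk1 and Kcnk2, a weak rectifier and a stretch- and heat-gated channel, differed by 0.035 and 0.038 on their brightest probes, and by -0.039 and 0.021 without KO 1. Their dimmer probes differed by 0.34 (SE 0.18) and -0.19 (SE 0.23), and by 0.25 and 0.0027 without KO 1.

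Auxiliary subunits, 9 tested genes, read higher in KO for 5 and lower for 4, with a median of 0.19. Kcnmb4, the neuronal beta subunit that slows Kcnma1 channels, measured 9.39, 8.91 and 8.67 in KO and 8.57, 8.59 and 8.56 in WT. The WT arrays lay within an SD of 0.02 of each other and each KO array was above them, by 0.41 on average (SE 0.20; limma adjusted p = 0.582). A dimmer Kcnmb4 probe measured 8.46, 8.25 and 7.92 against 7.75, 8.04 and 7.79, a difference of 0.35 in which KO 3 fell under WT 2. Without KO 1 the brighter and the dimmer probe gave 0.21 and 0.23, and the promoter of this gene is the second printed above. The pore gene Kcnma1 read on the opposite side of 0, as given before, and the difference between these subunits was not tested.

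Kcne1l, a single-pass subunit that modulates Kcnq and Kv channels, measured 9.91, 9.91 and 9.55 in KO and 9.66, 9.46 and 9.10 in WT. Its arrays overlapped through KO 3 and WT 1, with a difference of 0.38 (SE 0.20; limma adjusted p = 0.582), and 0.32 without KO 1. The calcium-binding partners of Kcnd channels differed by 0.31 (Kcnip1), -0.30 (Kcnip2), 0.27 (Kcnip3) and -0.059 (Kcnip4), and without KO 1 by 0.13, 0.011, 0.033 and 0.038. Of the beta subunits of Kcna channels, Kcnab1 differed by 0.19, Kcnab2 by -0.19 and Kcnab3 by -0.050, and without KO 1 by 0.034, 0.077 and 0.14. When KO 1 was left out, 0 of these 9 genes remained negative and the median was 0.077.

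**Figure D4:**
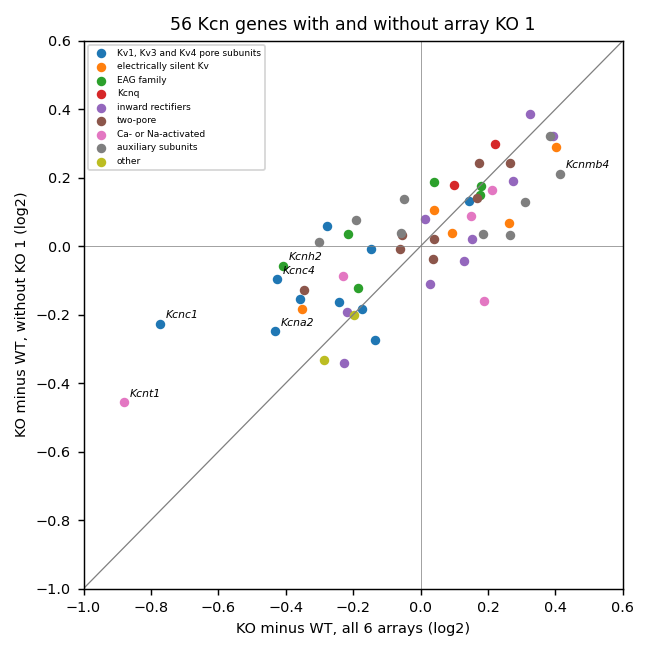
Difference between KO and WT for each of the 56 Kcn genes with all 6 arrays (horizontal axis, log2) and without KO 1 (vertical axis, log2), coloured by channel class, with the line of equality. Of the 56 differences 41 are smaller in size without KO 1 and 11 change sign, and Kcnc1 moves from -0.77 to -0.23.

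The 2 remaining members are not channels. Kcnq1ot1, which acts in imprinting at the Kcnq1 locus, measured 8.46, 7.87 and 8.78 in KO and 8.97, 8.13 and 8.88 in WT. In both genotypes the second pool was lowest, and the difference was -0.29 (SE 0.29; limma adjusted p = 0.676). Kcnrg measured 5.28, 5.05 and 5.51 against 5.57, 5.38 and 5.48, near background, a difference of -0.20 (SE 0.17; limma adjusted p = 0.633).

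Of the 56 genes 15 were read by several tested probes, which share the RNA of the same pools and so are not independent. All probes were negative for 8 genes, all positive for 3 and of mixed sign for 4. Kcnc4 gave -0.43 and -0.36, Kcnh2 -0.41 and -0.53, and Kcnip1 0.31 and 0.45. The widest gaps were those of Kcnma1, from -0.88 to -0.18, and of Kcnc1, from -0.77 to -0.38. Kcnab1, Kcnc2, Kcnip4 and Kcnk2 had mixed signs, between -0.19 and 0.19. These signs moved when KO 1 was left out. The probes of Kcna6, Kcnc1, Kcnc4, Kcnd2 and Kcnk1 then became mixed, and those of Kcnip4 and Kcnk2 all positive.

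**Figure D5:**
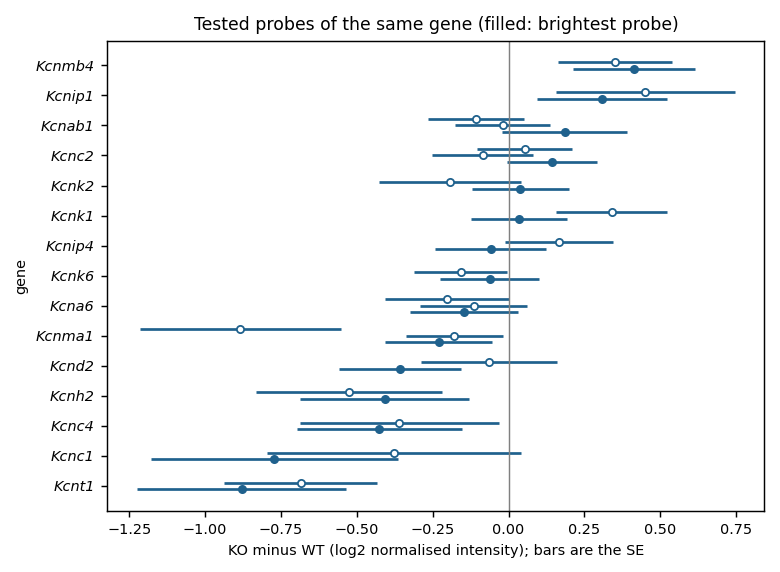
Difference between KO and WT in log2 with the SE for every tested probe of the 15 Kcn genes with several tested probes, filled for the brightest probe of the gene. Both Kcnt1 probes (-0.88 and -0.69) lie left of 0 and both Kcnmb4 probes (0.41 and 0.35) right of it, and the dimmest Kcnma1 probe (-0.88) lies apart from the other probes of that gene.

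Partners of potassium channels that are not named Kcn gave no call either. Of 29 listed genes 21 were tested, 7 positive and 14 negative, with a median of -0.049, and 0 passed limma's test in either direction, with 1 at an unadjusted p under 0.05. Of the 21 genes, 2 (Lrrc55 and Calm2) had all KO arrays above the WT arrays and 3 (Ank3, Amigo1 and Vapb) all below. Over all tested genes these shares were 8.6% and 6.79%. Lrrc55, a gamma subunit that shifts the gating of Kcnma1 channels, measured 5.63, 5.94 and 6.001 in KO and 5.47, 5.46 and 5.48 in WT, all KO arrays above, with a difference of 0.38 (SE 0.16; limma adjusted p = 0.582). Cntnap2, which clusters Kcna channels beside the node of Ranvier, measured 9.41, 10.26 and 10.02 against 10.57, 10.36 and 10.23, a difference of -0.49 (SE 0.23; limma adjusted p = 0.582). Of 15 listed symbols for channels that depolarise the cell, 11 were tested, 1 positive and 10 negative, with a median of -0.14. Of these, 0 passed the threshold and 1 had an unadjusted p under 0.05. Over all tested genes 47.4% were negative. When KO 1 was left out, Hcn2 (0.086), Unc80 (0.076), Scn3b (0.054) and Nalcn (0.035) turned positive. The other tested genes of this list kept their sign. Scn8a, a sodium channel of the spike initiation zone, measured 5.72, 6.74 and 6.37 against 6.85, 6.99 and 6.98, all KO arrays below, with a difference of -0.66 (SE 0.25; limma adjusted p = 0.582). The sodium channel beta subunit Scn4b differed by 0.31 (SE 0.20; limma adjusted p = 0.585). Without KO 1 the differences were 0.50 for Lrrc55, -0.25 for Cntnap2, -0.38 for Scn8a and 0.24 for Scn4b. KO 1 had the lowest mean on both lists, at 9.53 where the other arrays had 9.87 to 9.95, and at 8.08 where they had 8.42 to 8.57.

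The other 98 Kcn probes did not reach the detection rule, and 32 genes had no member probe. On 85 of these probes no array gave a signal above background, on 9 probes 1 array did and on 4 probes 2 arrays did. The 4 probes just outside the rule (Kcna6, Kcne2, Kcnh2 and Kcnq5) differed by -0.13 (Kcnh2) to 0.81 (Kcnq5), and 3 of them were detected in 1 genotype alone. The 3 just inside it (Kcnd3, Kcnq1 and Kcnrg) differed by -0.20 to 0.098, and each was detected in both genotypes. Among genes listed for known roles, Kcnk9 (3 probes) was detected on no array. Kcnj6, a G-protein-gated rectifier read by 6 probes, was detected on WT 1 alone, by 3 probes. Of these, ILMN_1257700 read 6.87 and ILMN_3112363 read 6.64 on WT 1, while their other arrays lay between 4.58 and 5.02. No probe is named here for Kcnj10, the potassium channel of astrocytes.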

How the data were processed

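Per the file headers, the deposited signals are linear intensity values, each with a detection p-value, for 45281 probes on 6 arrays. The authors deposited this intensity as not normalized, but its sorted values differ by at most 0.4 between arrays, so they had been quantile-normalized. The authors' deposited value table holds log2 values equal to the log2 of these signals within 5e-05, with medians of 7.30 or 7.31 and no centring. The design text gives Partek Genomics Suite 6.5 as the software. No source used here gives the normalization method.

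With limma 3.58.1 in R 4.3.3, signals went through neqc (background from the detection p, offset 16, quantile normalization, log2). Background correction widens differences between dim probes. Probes detected (p under 0.05) on at least 3 arrays were fitted with lmFit and eBayes (2-sided, no covariates), with Benjamini-Hochberg adjustment over all 20006 and a threshold of 0.05. The brightest probe stood for its gene, and 95% intervals come from the model. Symbols follow the platform annotation, updated through Entrez identifiers to RefSeq of GRCm38.p6. Named genes are the 2 with the smallest p in each channel class, those with an unadjusted p under 0.05 whose arrays separate the genotypes, and genes listed for known roles. Some others were chosen after their values were seen. Members and lists were chosen with earlier results of these data known. Replicates are pools, and their number limits precision. The fit was tested on simulated data.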

Additional observations from a re-analysis of the deposited data

How the results depend on the processing

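No Kcn probe passed the adjusted threshold under any of the 17 alternative fits run (the authors' values, uncorrected background, a normexp offset of 50, cyclic loess, scaling by medians, a strict or absent detection filter, weighted arrays, an intensity trend, the replicate block, and arrays left out singly or as the pair numbered 1). An unadjusted p under 0.05 gave 3 of 75 probes (4%, against 7.58% of all tested probes), and 0 to 10 over those fits. Apart from the replicate block, no count over all probes is given for those fits. Same-numbered pools had correlated deviations of 0.15, 0.0037 and 0.40, which does not meet the rule for pairing (over 0.1 in every pair), and the labels give no shared litter or day. With the replicate block 0 Kcn probes passed and 6 had an unadjusted p under 0.05. Over all 20006 probes the calls went from 1 to 0, and 1985 had an unadjusted p under 0.05, against 1516 without the block. Of the 6 arrays, all but WT 2 correlated best with their own number, a hint from the data and not from the design.

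The median over Kcn genes moved between -0.028 (without KO 3) and 0.062 (without WT 2), within the 0.066 spread (SD) of the array medians. It was -0.014 without WT 1, -0.0013 with cyclic loess and -0.0033 without both arrays numbered 1. Genes with all KO arrays above numbered 3 under the strict filter (which tests 31 Kcn genes), 11 without both arrays numbered 1 and 6 to 13 with one array left out. Those with all KO arrays below numbered 5 with cyclic loess, 11 without both arrays numbered 1 and 3 to 10 with one array left out. Over all tested genes, the shares with a single array left out were 10.7% to 19.4% above and 9.03% to 17.5% below. No such share is given for the other settings, and fewer arrays separate more often by construction. The strict filter left 15 negative genes. The Kv pore median stayed negative throughout, from -0.41 (without KO 2) to -0.11, and the auxiliary median positive, from 0.054 (mean of all probes of a gene) to 0.34 (without KO 3), and from 0.072 to 0.34 with one array left out. The medians by class and the negative counts were set up as alternatives after seeing the data.

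Of all 56 Kcn genes, 11 changed sign when KO 1 was left out. Over all settings, 2 of the 22 tested genes under the rule for named genes changed sign, Kcnj8 and Kcnj9. Kcnj8 became -0.15 with array weights, -0.13 without both arrays numbered 1 and -0.11 to 0.18 with one array left out. Kcnj9 became -0.0026 with cyclic loess, -0.14 without both arrays numbered 1 and -0.20 to 0.16 with one array left out. The cause was not tested. Dim probes limit precision: Kcnj8, Kcnj9, Kcnj11, Kcng2 and Kcnk12, among others, lie near background.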
